A study of Mus musculus with 4 samples.

Results

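The genes examined here take up fatty acids and handle lipoproteins, the particles that carry fat in blood and lymph. They are Lpl, Gpihbp1, Angptl4, Cd36, Fabp4, Apoe and Lrp1, 7 of the 31053 features measured, chosen by gene symbol and followed through every cell class of inguinal white adipose tissue (iWAT, the subcutaneous fat pad of the groin of the mouse). The tissue was digested, and the stromal vascular fraction, which is what remains after the fat-filled adipocytes are left behind, was sequenced cell by cell. Controls were 7 pooled C57BL/6 mice and the other group was 8 pooled mice of the line named iAdFASNKO. The labels do not spell that name out, and it is known as an inducible adipocyte knockout of Fasn, the gene of fatty acid synthase; neither the driver of the knockout nor the age of the mice is given in the sources used here. Magnetic beads split each pool into a lineage-marker-positive fraction (Lin+) and the other stromal cells (Lin-). There were thus 4 libraries, 1 per genotype and fraction. Lin+ did not hold immune cells alone. Cells classed below as progenitors made up 58.4% of control Lin+ cells and 36.6% of iAdFASNKO Lin+ cells.

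Lipoprotein lipase, the product of Lpl, splits the triglyceride of chylomicrons and very low density lipoproteins at the wall of capillaries, where the endothelial protein GPIHBP1 carries and anchors it and ANGPTL4 inactivates it. The fatty acids set free enter cells with the help of the membrane glycoprotein CD36 and are bound inside them by FABP4. Apolipoprotein E marks the remnant particles, and LRP1 takes them up. In fat, adipocytes are the main users of this route, and adipocytes are not among the cells measured here.

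With 1 pooled library in each group there was no replicate, so no test was made and no p-value is given. Levels are CPM, a gene's unique molecular identifiers (UMIs, 1 for each captured transcript) scaled to 1000000 UMIs of all genes, with all cells of a class in 1 library added up. A CPM carries an exact Poisson 95% interval and a ratio an exact conditional binomial one, and these intervals hold the error of counting alone and leave out how cells, mice and preparations differ. A gene passed the size rule where the ratio was at least 1.5 or at most 1/1.5, the interval did not hold 1, and at least 20 UMIs lay behind both values together. Ratios are iAdFASNKO over control within a fraction unless stated otherwise.

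The 4 libraries held 18336 barcodes, of which 14727 were kept as cells, 2915 to 4426 per library, with median UMIs of 5358 (control Lin+), 3298 (iAdFASNKO Lin+), 9121 (control Lin-) and 4150 (iAdFASNKO Lin-). The iAdFASNKO cells were thus the shallower ones in both fractions. Cells were assigned to classes by the number of marker genes detected, and 5.63% to 10.3% of the cells of a library met no class; class names stand for these marker lists, not for an annotation by the authors. Some barcodes occurred in more than 1 library: 178 control Lin+, 122 iAdFASNKO Lin+, 102 control Lin- and 85 iAdFASNKO Lin- cells carried one, 1.97% to 6.11% of a library. Haemoglobin transcripts made up 0.605% (control) and 1.27% (iAdFASNKO) of the UMIs of Lin+ cells and 0.00228% and 0.00169% of those of Lin- cells. In progenitors Fasn itself stood at 40.7 CPM (control Lin+), 24.8 (iAdFASNKO Lin+), 44.2 (control Lin-) and 29.0 (iAdFASNKO Lin-). This does not check the labels, since adipocytes, the cells of the knockout, were not measured.

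Each gene had its own distribution over the classes. Progenitors, the fibroblast-like cells that can become adipocytes, led for Lpl, Lrp1 and Angptl4 in all 4 libraries. Apoe was led by macrophages in Lin+ and by endothelial cells in Lin-, and Gpihbp1 was found in endothelial cells. Fabp4 was led by blood endothelial cells where at least 30 of them were present (both iAdFASNKO libraries), by mural cells in control Lin- and by progenitors in control Lin+. Cd36 was led by macrophages in Lin+ and by endothelial cells in Lin-, where in control the lymphatic cells overlapped the mural cells next to them.

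**Figure D1:**
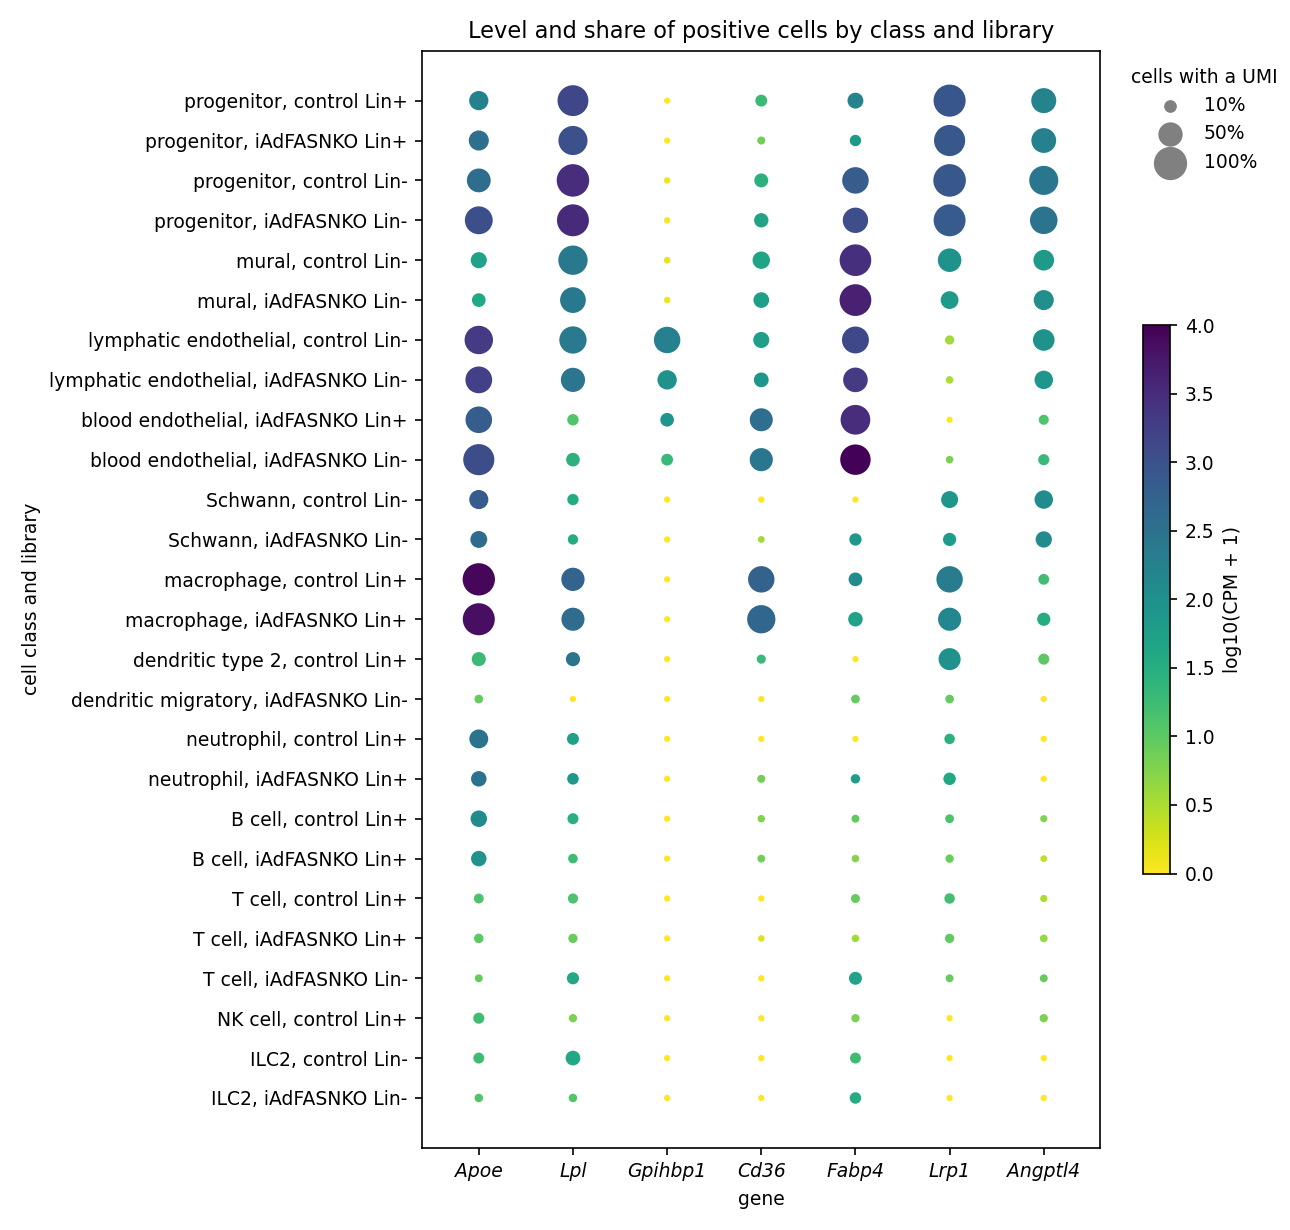
Level (colour, log10 of CPM plus 1) and share of cells with at least 1 UMI (area of the point grows with the share) of the 7 genes in each class with at least 30 cells, by library. Gpihbp1 stands out in the endothelial rows alone, Lpl and Lrp1 are darkest in progenitors, and Apoe is darkest in the macrophage rows, at 8442 and 7007 CPM.

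Lpl, at chr8:68880491-68907448 of mm10 (ENSMUSG00000015568, plus strand), had 1423 CPM in control Lin+ and 1071 CPM in iAdFASNKO Lin+ progenitors, and 3067 CPM and 3376 CPM in the Lin- ones. Lin- progenitors were above Lin+ progenitors in both genotypes. Macrophages, which secrete the enzyme too, held 527 CPM (95% interval 469 to 590) in control Lin+ and 392 CPM (324 to 471) in iAdFASNKO Lin+. Mural cells, the pericytes and smooth muscle around vessels, held 238 and 245 CPM in Lin-, and lymphatic endothelial cells held 236 and 274 CPM there. Mural and lymphatic endothelial cells overlapped in their intervals in both Lin- libraries. T cells, which are not known as a source of the enzyme, held 11.95 and 7.63 CPM in Lin+. B cells held 27.5 and 16.6 CPM there and neutrophils 52.5 and 71.5 CPM. In iAdFASNKO Lin- T cells held 39.2 CPM, so T cells of Lin+ alone do not set a background level for Lpl. The 293 CPM of type 2 dendritic cells in control Lin+ came mostly from 1 of their 30 cells, which held 92.2% of the UMIs.

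Angptl4 (ENSMUSG00000002289, chr17:33773750-33781830, minus strand) was highest in progenitors, at 159 CPM in control Lin+, 181 CPM in iAdFASNKO Lin+, 270.5 CPM in control Lin- and 284 CPM in iAdFASNKO Lin-. Schwann cells, the glia of the nerves in the pad, followed in Lin- at 121 and 126 CPM. Lymphatic endothelial cells stood at 90.9 and 79.1 CPM and mural cells at 68.0 and 101 CPM. In control Lin- the intervals overlapped from Schwann to lymphatic endothelial and from lymphatic endothelial to mural cells. In iAdFASNKO Lin- they overlapped from Schwann to mural and from mural to lymphatic endothelial cells. The order of these neighbours was thus not resolved in either library. Blood endothelial cells of iAdFASNKO Lin- were below all of these classes, at 18.9 CPM (7.59 to 38.9). In T, B and NK cells Angptl4 did not exceed 7.84 CPM in any library.

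Gpihbp1 (ENSMUSG00000022579, chr15:75596628-75599481, plus strand) had 272 UMIs, or 187 CPM (166 to 211), in control and 88 UMIs, or 96.7 CPM (77.6 to 119), in iAdFASNKO Lin- lymphatic endothelial cells. Blood endothelial cells held 18.9 CPM (7.59 to 38.9) in iAdFASNKO Lin- and 81.6 CPM (50.5 to 125) in iAdFASNKO Lin+. In Lin- progenitors it reached 6 UMIs in 2203 control cells and 2 UMIs in 2231 iAdFASNKO cells. In macrophages, B cells, T cells and progenitors of both Lin+ libraries it was at 0 UMIs, which for the 1702 control progenitors allows a share of cells with a UMI of up to 0.176%. The other 6 genes each had UMIs in at least some class outside endothelium in every library.

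Cd36 (ENSMUSG00000002944, chr5:17781690-17888801, minus strand) was at 573 CPM (512 to 638) in Lin+ macrophages of control mice and at 485 CPM (408 to 571) in those of iAdFASNKO mice. Blood endothelial cells of iAdFASNKO held 373 CPM (302 to 455) in Lin+ and 272 CPM (222 to 331) in Lin-, the former overlapping the macrophages of its library. Progenitors were far lower, at 18.4 CPM (control Lin+), 6.17 CPM (iAdFASNKO Lin+), 26.8 CPM (control Lin-) and 47.3 CPM (iAdFASNKO Lin-). T cells held 0 and 0.587 CPM in Lin+, B cells 4.78 and 6.27 CPM and neutrophils 0 and 6.50 CPM. The progenitors of iAdFASNKO Lin+ thus overlapped the B cells of their library.

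Fabp4 (ENSMUSG00000062515, chr3:10204088-10208576, minus strand) reached 9499 CPM in blood endothelial cells of iAdFASNKO Lin- and 3127 CPM in those of iAdFASNKO Lin+. Mural cells followed in Lin- with 2748 CPM in control and 4220 CPM in iAdFASNKO. Lymphatic endothelial cells held 1375 and 2022 CPM and progenitors 675 and 1137 CPM, so that each of these 3 Lin- classes was higher in iAdFASNKO. In Lin+ progenitors the order was the other way, with 161 CPM in control and 63.6 CPM in iAdFASNKO. T cells of Lin+ held 7.61 and 2.64 CPM, and the 57 T cells of iAdFASNKO Lin- held 47.0 CPM (17.3 to 102).

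Apoe (ENSMUSG00000002985, chr7:19696109-19699188, minus strand) stood at 8442 CPM (8205 to 8685) in Lin+ macrophages of control mice and at 7007 CPM (6707 to 7317) in those of iAdFASNKO mice. In Lin- it was at 1987 and 1723 CPM in lymphatic endothelial cells and at 719 and 416 CPM in Schwann cells. Progenitors held 179 CPM (control Lin+), 357 CPM (iAdFASNKO Lin+), 381 CPM (control Lin-) and 1077 CPM (iAdFASNKO Lin-). Blood endothelial cells of iAdFASNKO Lin- were at 1175 CPM (1068 to 1291), an interval that overlapped that of the progenitors of the same library. B cells of Lin+ held 121 and 86.4 CPM against 11.95 and 8.80 CPM in T cells. The macrophage marker C1qa was at 3.59 and 6.27 CPM in B cells and 3.26 and 2.35 CPM in T cells against 3944 and 3150 CPM in macrophages. Of the 50 Apoe UMIs in iAdFASNKO neutrophils, 72.0% lay in 1 cell.

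Lrp1 (ENSMUSG00000040249, chr10:127538161-127621148, minus strand) was highest in progenitors, at 844, 833, 821 and 734 CPM in control Lin+, iAdFASNKO Lin+, control Lin- and iAdFASNKO Lin-. Macrophages came next in Lin+, and mural and Schwann cells in Lin-. Macrophages held 223 CPM (186 to 265) and 143 CPM (103 to 194). Mural cells of Lin- held 91.0 and 66.5 CPM and Schwann cells 78.2 and 65.6 CPM, with overlapping intervals in both libraries. Lymphatic endothelial cells were at 2.75 and 2.2 CPM, and blood endothelial cells of iAdFASNKO Lin+ at 0 UMIs in 41 cells. T cells of Lin+ held 15.2 and 8.51 CPM.

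RefSeq sequence of the 250 bases before a transcript start (table build GRCm38.p6, the same assembly as mm10) was held for 3 of the 7 genes, with 3 windows for Apoe, of which that of the outermost start is shown. These genes were shown because a window was held for them, and Fabp4, which also differed between genotypes in progenitors, had none. Apoe and Cd36 differed there too and Lrp1 did not pass the size rule, but a link between windows and levels was not tested. The windows lie on the minus strand. That of Apoe is at chr7:19699189-19699438 and that of Lrp1 at chr10:127621149-127621398, each directly before the annotated gene. That of Cd36 is at chr5:17835897-17836146, inside the annotated gene, at a start other than the outermost one. The first bases after the start were found in an annotated transcript of the gene for Apoe and Lrp1. For Cd36 they were found in none, on either strand, so this start was not matched to a transcript. Capitals mark exact matches to any of the motifs searched on both strands. These were the TATA box TATAAA, the CCAAT box CCAAT, the GC box GGGCGG, the nuclear receptor half-site AGGTCA and the C/EBP pattern TTGCNNAA, with N for any base.
Apoe: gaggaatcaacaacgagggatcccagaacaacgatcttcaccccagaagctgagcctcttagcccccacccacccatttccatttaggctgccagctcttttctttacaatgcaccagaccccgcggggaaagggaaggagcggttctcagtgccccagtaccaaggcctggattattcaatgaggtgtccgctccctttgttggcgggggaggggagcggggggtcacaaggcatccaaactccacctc
Cd36: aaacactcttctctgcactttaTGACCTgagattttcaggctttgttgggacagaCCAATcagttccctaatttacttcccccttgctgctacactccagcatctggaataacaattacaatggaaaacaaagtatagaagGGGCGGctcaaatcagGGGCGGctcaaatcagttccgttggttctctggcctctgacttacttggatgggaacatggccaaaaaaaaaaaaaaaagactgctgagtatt
Lrp1: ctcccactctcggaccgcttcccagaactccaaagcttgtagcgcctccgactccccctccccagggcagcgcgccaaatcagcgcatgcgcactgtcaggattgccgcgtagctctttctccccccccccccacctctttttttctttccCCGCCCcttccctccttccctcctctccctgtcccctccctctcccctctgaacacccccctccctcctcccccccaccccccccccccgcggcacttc
The Apoe window shown, 57.2% G and C, held none of the motifs. Of the other two Apoe windows, which are not printed, 1 held a pair of overlapping TATAAA matches, at 96 to 91 bases before its start and on the other strand at 100 to 95, and 1 held none. That of Cd36, 43.2% G and C, held a half-site on the other strand 228 to 223 bases before the start, a CCAAT box at 195 to 191, and GC boxes at 109 to 104 and at 93 to 88. That of Lrp1, 67.2% G and C, held 1 GC box, on the other strand at 99 to 94. Over the 32851 windows of this length in the table, 12.4% held TATAAA, 33.8% CCAAT, 32.7% GGGCGG, 14.0% AGGTCA and 9.56% TTGCNNAA. These matches describe letters; binding was not measured.

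Progenitors were compared between genotypes first, since they were the largest class in all 4 libraries. In Lin-, Apoe, Cd36 and Fabp4 were higher in iAdFASNKO, while Lpl, Lrp1 and Angptl4 did not pass the size rule. In Lin+, Apoe was again higher, but Cd36 and Fabp4 were lower. Apoe was thus the single gene of the 7 that passed the rule in the same direction in both fractions.

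The Apoe ratio was 2.83 (2.75 to 2.91) in Lin- progenitors, from 381 to 1077 CPM, and 1.99 (1.90 to 2.09) in Lin+ progenitors, from 179 to 357 CPM. At least 1 UMI was found in 47.7% of control and 67.6% of iAdFASNKO Lin- cells, although the latter had a median of 5405 UMIs against 10419. With each cell thinned to 1500 UMIs at random, which left out 105 and 150 shallower cells, these shares were 24.5% and 51.9%. In Lin+, where the median UMIs were 8380 and 5942.5, they were 29.0% and 32.0% before thinning and 12.6% and 19.5% after it, with 145 and 224 cells left out. T cells of Lin+, with medians of 3289.5 and 3959 UMIs, gave 2.56% and 1.03% when thinned alike.

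For Cd36 the ratio was 1.77 (1.58 to 1.98) in Lin- and 0.335 (0.253 to 0.440) in Lin+ progenitors. The Lin+ values rested on 272 control and 67 iAdFASNKO UMIs, and the iAdFASNKO level of 6.17 CPM was not above the 6.27 CPM of B cells there. For Fabp4 the ratio was 1.68 (1.65 to 1.72) in Lin- and 0.396 (0.363 to 0.431) in Lin+. Both genes bind long-chain fatty acids, CD36 at the membrane and FABP4 in the cytosol.

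Lpl differed by 1.10 (1.09 to 1.11) in Lin- and 0.753 (0.736 to 0.770) in Lin+, and Angptl4 by 1.05 (1.01 to 1.09) and 1.13 (1.07 to 1.204). Lrp1 differed by 0.894 (0.872 to 0.917) and 0.987 (0.961 to 1.01). Gpihbp1 had too few UMIs for a ratio. So 3 of 6 measured genes passed the size rule in Lin- (3 higher), where 15.1% of all genes measured in that comparison did, and 3 of 6 in Lin+ (1 higher, 2 lower), where 14.1% did. The median log2 ratio over all genes was 0.04 in Lin- and 0.13 in Lin+, so that the Lin+ ratios stand against a small general shift.

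**Figure D2:**
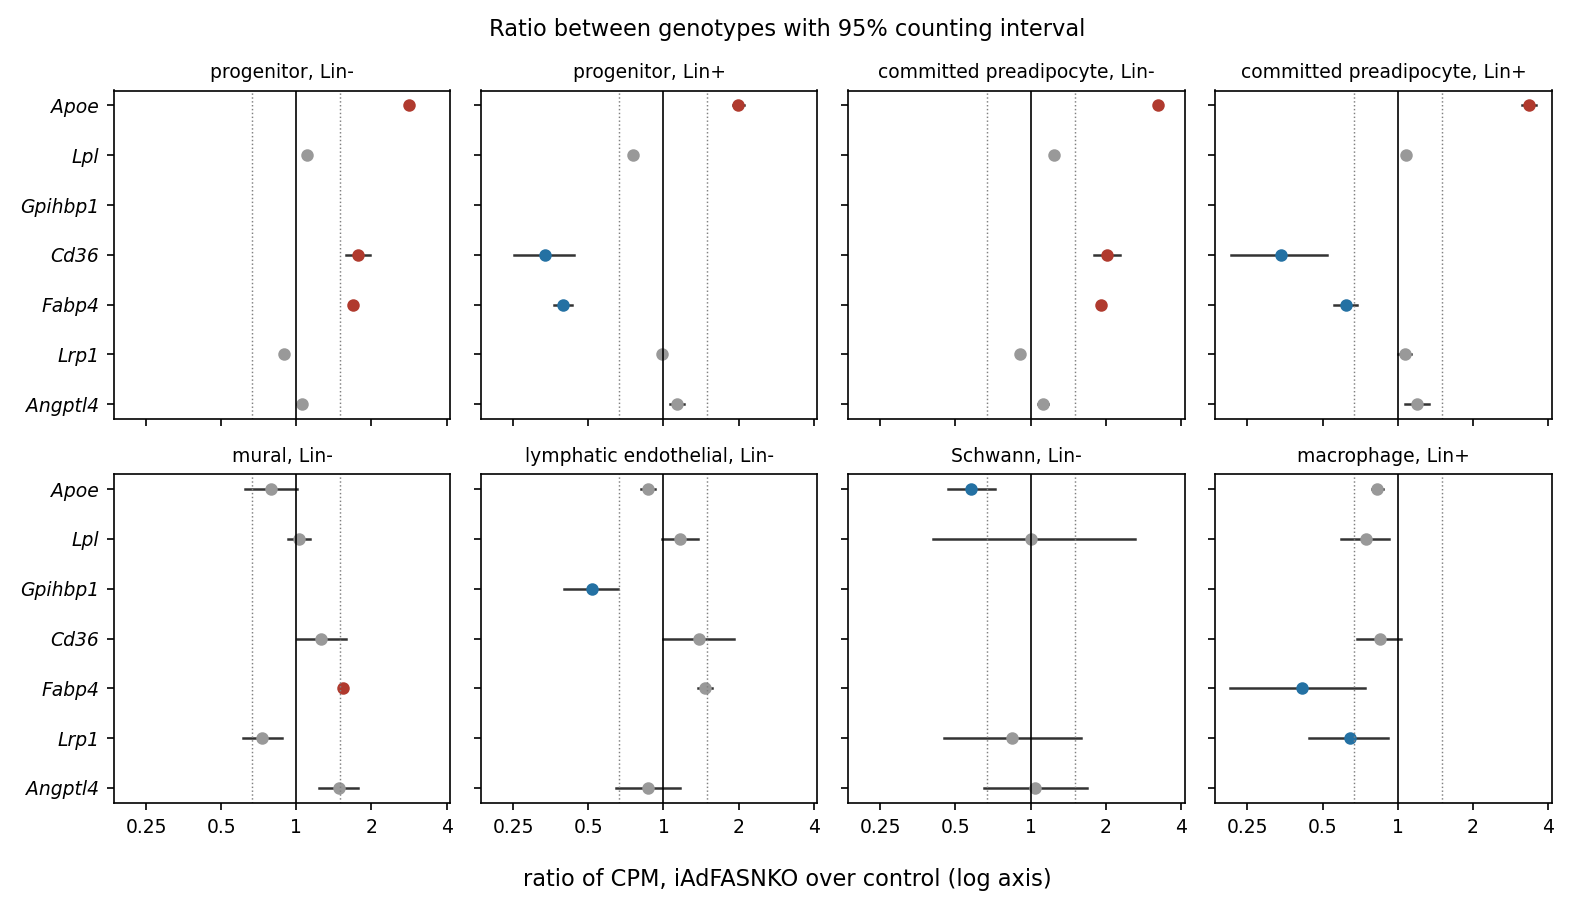
Ratio of CPM between iAdFASNKO and control (log axis) with its 95% counting interval, for each gene with at least 20 UMIs and UMIs in both libraries, in 8 comparisons. Red and blue points passed the size rule as higher and lower, grey ones did not, dotted lines stand at 1.5 and 1/1.5, and Cd36 and Fabp4 lie right of 1 in Lin- and left of it in Lin+ progenitors.

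Markers of red blood cells were high in Lin+ progenitors, where the 8 erythroid markers summed to 4670 CPM in control and 4096 CPM in iAdFASNKO, against 10.7 and 10.6 CPM in Lin-. The haemoglobin gene Hbb-bs alone was at 2112 and 1920 CPM in Lin+ progenitors, in 92.5% and 96.3% of cells, above Lpl. The summed level of the 8 macrophage markers was 69.7 CPM (control Lin+), 52.7 (iAdFASNKO Lin+), 166 (control Lin-) and 129 (iAdFASNKO Lin-), against 14816 and 12259 CPM in macrophages, and 0, 1, 1 and 2 of the 8 were at 0 UMIs. C1qa had 0 UMIs in control and 2 UMIs in iAdFASNKO Lin- progenitors. The 8 blood endothelial markers summed to 14.4 CPM in control and 28.4 CPM in iAdFASNKO Lin- progenitors, against 6798 CPM in the blood endothelial cells of the latter library. The adipocyte marker Adipoq had 0 UMIs in 3 libraries and 1 UMI in control Lin-. The 8 adipocyte markers summed to 29.1, 12.3, 45.8 and 30.3 CPM in the order of libraries above, lower in iAdFASNKO in both fractions. The part of RNA from macrophages, red blood cells, endothelial cells and adipocytes in the Apoe, Fabp4 and Cd36 differences was not tested.

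The make-up of the progenitors differed between libraries. Cells were split by 8 markers each of interstitial progenitors (Pi16, Dpp4 and others, the less differentiated cells) and of committed preadipocytes (Pparg, Icam1, Fgf10 and others). None of the 7 genes is in either list. Committed preadipocytes made up 29.4% of progenitors in control Lin+, 12.2% in iAdFASNKO Lin+, 81.9% in control Lin- and 69.2% in iAdFASNKO Lin-. Interstitial progenitors made up 47.9%, 66.4%, 2.77% and 5.69%, and the other cells lay between both lists. The split counts detected markers, and Lin- progenitors had median UMIs of 10419 in control and 5405 in iAdFASNKO. The other cells made up 15.3% and 25.1% of them. The part of depth in these shares was not tested.

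In every library 5 of the 7 genes were higher in committed preadipocytes than in interstitial progenitors. Fabp4 stood at 462 against 4.19 CPM in control Lin+ (ratio 110, 76.9 to 164), 286 against 6.58 CPM in iAdFASNKO Lin+ (43.4, 32.2 to 59.8), 766 against 25.3 CPM in control Lin- (30.2, 18.0 to 55.3) and 1469 against 107 CPM in iAdFASNKO Lin- (13.7, 11.1 to 17.1). Of the UMIs behind the 107 CPM, 68.6% lay in 1 cell, and without the cell with most UMIs in each class the ratios were 43.3 there and 59.5 in control Lin-. Cd36 was at 46.8 against 1.12 CPM, 15.98 against 1.65 CPM, 30.1 CPM against 0 UMIs and 61.0 against 4.99 CPM in the same order of libraries, ratios of 41.8, 9.71, at least 5.55 and 12.2, where the bound sets the 61 control Lin- interstitial cells to 3 UMIs.

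Apoe was at 365 against 29.8 CPM (12.2), 1227 against 100 CPM (12.3), 387 against 146 CPM (2.64) and 1258 against 176 CPM (7.15). For Lpl the ratios were 6.03, 5.88, 4.33 and 7.49, with committed levels of 2853, 3083, 3319 and 4101 CPM. For Angptl4 they were 2.66, 2.13, 1.61 and 2.99, with committed levels of 256, 305, 283 and 317 CPM. Lrp1 did not pass the rule, with ratios of 1.17, 1.25, 1.22 and 1.10. In the 4 libraries 22.3%, 20.8%, 14.5% and 17.0% of all genes measured in these comparisons passed the same rule, against 5 of 6 here. The lists were drawn up with earlier results of these data known, so this count is a description.

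**Figure D3:**
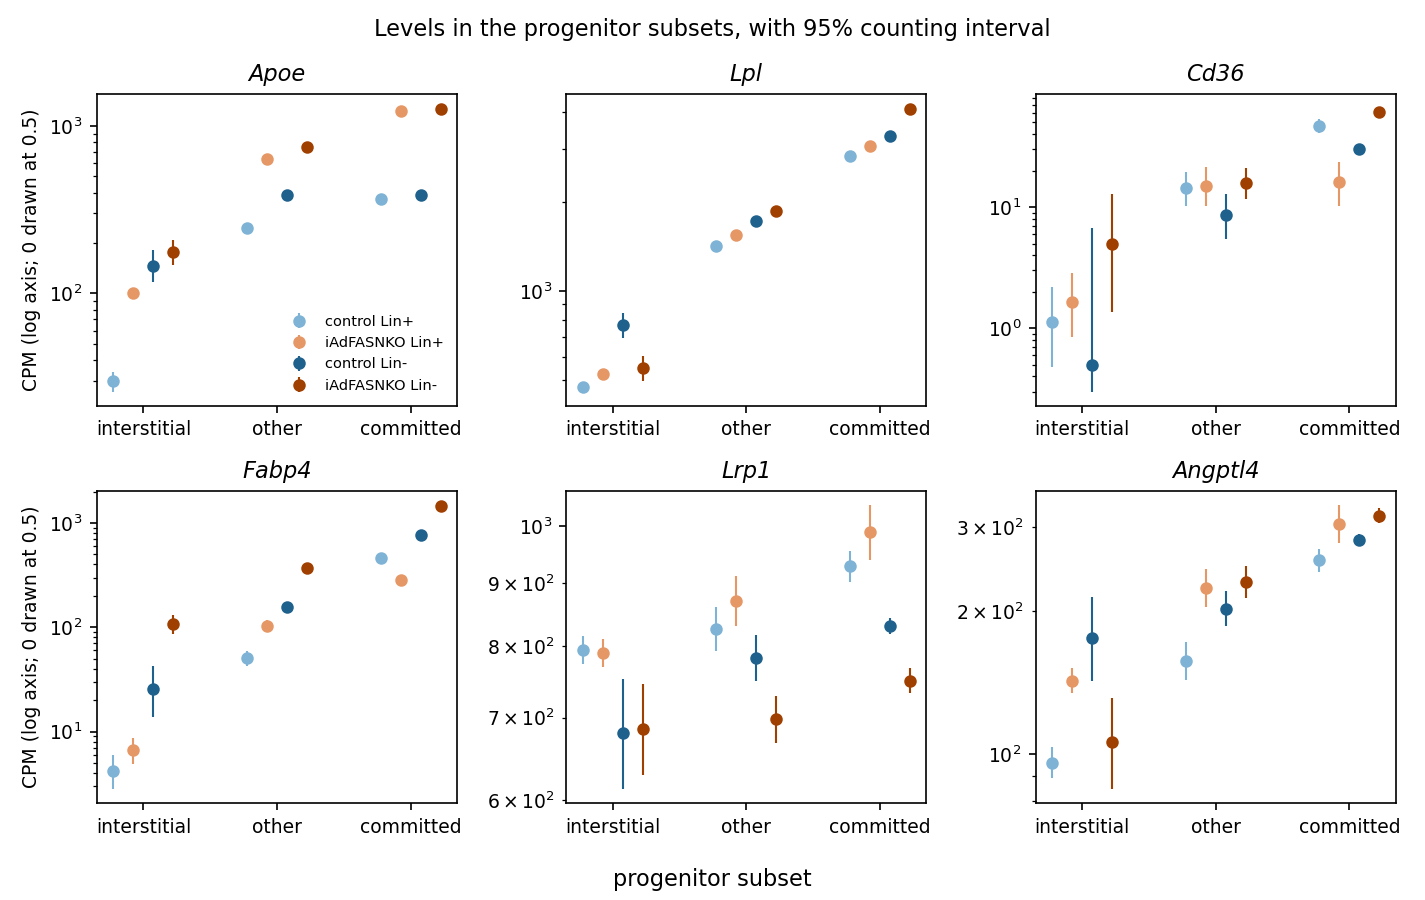
CPM (log axes, 95% counting intervals) of 6 genes in interstitial, other and committed progenitor cells of the 4 libraries. Apoe, Lpl, Cd36, Fabp4 and Angptl4 are higher at the committed than at the interstitial end in each library, while Lrp1 lies between 679.98 and 989.6 CPM; the committed points of Apoe in iAdFASNKO lie at 1227 and 1258 CPM.

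Within committed preadipocytes alone Apoe, Cd36 and Fabp4 passed the rule in the same directions as in all progenitors. Apoe went from 387 to 1258 CPM in Lin- (ratio 3.25, 3.16 to 3.35) and from 365 to 1227 CPM in Lin+ (3.36, 3.15 to 3.59). The fractions lay close to each other in each genotype, unlike in progenitors as a whole. Among interstitial progenitors of Lin+, Apoe went from 29.8 to 100 CPM (3.36, 2.88 to 3.94). Among those of Lin- it was at 146 and 176 CPM (1.2, 0.907 to 1.60), with 61 and 127 cells. In the cells of neither list it stood at 244 and 632 CPM in Lin+ and at 385 and 753 CPM in Lin-.

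Cd36 in committed preadipocytes went from 30.1 to 61.0 CPM in Lin- (2.03, 1.80 to 2.28) and from 46.8 to 15.98 CPM in Lin+ (0.342, 0.214 to 0.522), where 24 UMIs in 197 cells stood against 223 UMIs in 501 cells. Fabp4 went from 766 to 1469 CPM in Lin- (1.92, 1.87 to 1.96) and from 462 to 286 CPM in Lin+ (0.619, 0.557 to 0.687). Under a mean over cells of scaled counts, which gives each cell the same weight, the Lin+ ratio of Fabp4 was 0.679 and no longer passed the rule. In the cells of neither list Fabp4 stood at 50.6 CPM in control Lin+ and 104 CPM in iAdFASNKO Lin+, the reverse order, and Cd36 at 14.3 and 14.99 CPM. Of the 214 iAdFASNKO UMIs of Fabp4 in the latter cells, 29.0% lay in 1 cell. Interstitial progenitors of Lin+ were at 4.19 and 6.58 CPM, so the lower Lin+ level of Fabp4 was found in the committed subset.

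Other markers moved with these values. In committed cells of Lin+ the erythroid markers, mostly haemoglobin, summed to 5723 CPM in control and 1532 CPM in iAdFASNKO, and the adipocyte markers to 66.0 and 32.6 CPM, with 5 and 6 of 8 at 0 UMIs. In committed cells of Lin- the adipocyte markers summed to 49.99 and 34.3 CPM and the blood endothelial markers to 12.6 and 23.3 CPM. Their part in the Cd36 and Fabp4 differences was not tested.

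Lpl in committed preadipocytes was at 1.24 (1.22 to 1.25) in Lin- and 1.08 (1.04 to 1.12) in Lin+, Angptl4 at 1.12 (1.07 to 1.17) and 1.19 (1.07 to 1.33), and Lrp1 at 0.903 (0.878 to 0.929) and 1.07 (1.00 to 1.13). The Lpl ratio of Lin+ progenitors as a whole, 0.753, thus lay under 1 while each of their 3 subsets was higher in iAdFASNKO: by 1.08 in committed, by 1.11 in interstitial and, in the other cells, at 1412 CPM in control against 1538 CPM. Of 6 measured genes, 3 passed the rule in Lin- (3 higher) against 13.9% of all genes, and 3 in Lin+ (1 higher, 2 lower) against 10.2%. In interstitial progenitors 1 of 6 passed in Lin+ (12.4% of all genes) and 2 of 5 in Lin- (11.9%). Those 2 were Fabp4, at 25.3 and 107 CPM (4.24, 2.39 to 8.07), and Angptl4, at 175 and 106 CPM (0.604, 0.446 to 0.817). Without the single cell with most UMIs in each library the Fabp4 ratio was 2.66 and that of Angptl4 0.813, the latter no longer past the rule. Fabp4 did not pass with a stricter gate or with classes by clustering, and Angptl4 neither without shared barcodes nor as a mean over cells.

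**Figure D4:**
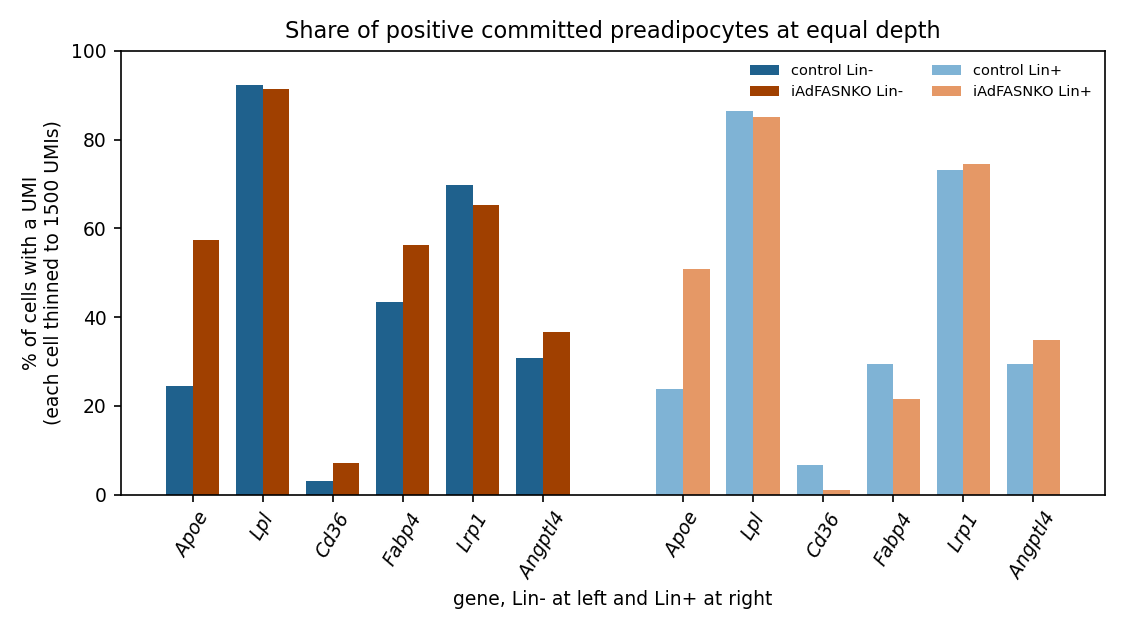
Percent of committed preadipocytes with at least 1 UMI of each gene after every cell was thinned to 1500 UMIs, by genotype, in Lin- (left) and Lin+ (right). Apoe goes from 24.4% to 57.3% in Lin- and from 23.8% to 50.8% in Lin+, whereas Cd36 goes from 3.12% to 7.17% in Lin- and from 6.69% to 1.10% in Lin+.

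The thinned shares of Apoe, Fabp4 and Cd36 had the same order as their levels, and those of Lpl did not, at 92.2% and 91.3% in Lin- and 86.4% and 85.1% in Lin+. Apoe was found in 24.4% of control and 57.3% of iAdFASNKO committed cells in Lin-, and in 23.8% and 50.8% in Lin+. Before thinning these shares were 49.3% and 75.0% in Lin- and 44.9% and 65.5% in Lin+. The cells left out numbered 40 and 50 in Lin- and 23 and 16 in Lin+. For Fabp4 the thinned shares were 43.4% and 56.2% in Lin- and 29.5% and 21.5% in Lin+. For Cd36 they were 3.12% and 7.17%, and 6.69% and 1.10%, while T cells of Lin+ gave 0% and 0.147%. Before thinning, the Fabp4 share in Lin- committed cells was 68.6% in control and 67.5% in iAdFASNKO, at median depths of 10832 and 5816 UMIs, and T cells gave 0.513% and 0.442% thinned.

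The fractions were also compared within each genotype, as Lin+ over Lin-. Magnetic sorting sets which cells are in each, so these ratios describe the sort and the make-up together. In all progenitors 4 of 6 genes were lower in Lin+ in control (21.0% of all genes passed), with ratios of 0.471 for Apoe, 0.464 for Lpl, 0.238 for Fabp4 and 0.590 for Angptl4. In iAdFASNKO 5 of 6 were lower (28.0% of all genes passed): Apoe at 0.332, Lpl at 0.317, Cd36 at 0.130, Fabp4 at 0.056 and Angptl4 at 0.636.

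Between committed preadipocytes of the 2 fractions fewer genes differed. In control Cd36 was higher in Lin+ (1.55, 1.33 to 1.82) and Fabp4 lower (0.603, 0.576 to 0.631), 2 of 6 against 10.4% of all genes. In iAdFASNKO both were lower in Lin+, Cd36 at 0.262 (0.167 to 0.394) and Fabp4 at 0.195 (0.176 to 0.214), 2 of 6 against 13.0%. Apoe was alike in the fractions, at 0.942 (0.894 to 0.993) in control and 0.975 (0.928 to 1.024) in iAdFASNKO. These comparisons share their libraries with those between genotypes.

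The other genes of the route were followed in progenitors through 6 lists, which hold the 7 genes as well. The median log2 ratio over all genes was 0.04 in Lin- and 0.13 in Lin+, beside which the medians of the lists stand. Of the lipoprotein and scavenger receptors, Stab1, a scavenger receptor, was lower in Lin- (1.99 and 0.996 CPM, 0.4995, 0.247 to 0.942). In Lin+ the sorting receptor Sort1 (5.34 and 3.41 CPM, 0.638, 0.420 to 0.954) and Scarb1, the receptor of high density lipoprotein (4.46 and 2.76 CPM, 0.619, 0.388 to 0.967), were lower. Sorl1, another sorting receptor, was higher there (1.76 and 3.13 CPM, 1.78, 1.04 to 3.09). In these comparisons none of the 4 genes was above the 5.34 CPM of Sort1.

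Of the 8 genes for sterol handling after uptake, 1 was higher and 0 lower in Lin-, and 2 were higher and 0 lower in Lin+, beside 15.1% and 14.1% of all genes past the rule in either direction. In Lin- the share of the list is near that background. The list had medians of -0.03 and 0.23. Abca1, the transporter that loads cholesterol onto apolipoproteins, was at 51.6 and 85.0 CPM in Lin- (1.65, 1.52 to 1.79) and at 107 and 167 CPM in Lin+ (1.56, 1.46 to 1.67). Abcg1, which exports sterol to high density lipoprotein, was at 3.58 and 6.91 CPM in Lin+ (1.93, 1.34 to 2.79). In Lin- progenitors Abcg1 did not pass the rule, and in Lin- committed preadipocytes it was lower, at 0.438 (0.177 to 0.953) from 46 UMIs in all.

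Among apolipoproteins 3 of 11 were measured in progenitors. Beside Apoe, Apoc1 was higher in Lin- (0.886 and 2.45 CPM, 2.77, 1.53 to 5.10, from 20 and 32 UMIs). Apod did not pass the rule in Lin+ progenitors as a whole, but was at 911 and 1636 CPM in committed cells (1.80, 1.71 to 1.89) and at 516 and 290 CPM in interstitial cells (0.562, 0.533 to 0.593) of that fraction. The list's median was 1.47 in Lin- and -0.28 in Lin+.

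The list of fatty acid binding proteins had 3 measured of 8 in Lin-, with 2 higher and 0 lower, beside 15.1% of all genes. Fabp5 was at 17.1 and 26.6 CPM there (1.55, 1.34 to 1.80), beside Fabp4. In Lin+ 2 were measured, with 0 higher and 1 lower, beside 14.1% of all genes. The medians were 0.64 and -0.66. For fatty acid uptake and activation 11 of 15 were measured in both fractions, with 2 higher and 1 lower in Lin- and 0 higher and 1 lower in Lin+, beside the same 15.1% and 14.1%, and the Lin+ share lies under that background. Acsl4, which activates arachidonic acid, was higher in Lin- (20.3 and 33.4 CPM, 1.65), and Cav2 lower (12.7 and 8.43 CPM, 0.665). The medians over that list were 0.01 in Lin- and -0.27 in Lin+.

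Among genes of intravascular lipolysis 6 of 10 were measured in both fractions, with 1 higher and 0 lower in Lin- and 1 higher and 1 lower in Lin+, and medians of 0.16 and 0.12. The share of all genes past the rule was 15.1% in Lin-, near that of the list, and 14.1% in Lin+. Endothelial lipase, Lipg, had opposite directions, with 28 and 32 UMIs in Lin- (1.98, 1.15 to 3.41) and 27 and 3 UMIs in Lin+ (0.151, 0.0294 to 0.492). Angptl8 was higher in Lin+ on 14 and 23 UMIs (2.24, 1.10 to 4.70).

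Endothelial cells, the site of intravascular lipolysis, fell into 2 main classes. Lymphatic endothelial cells, 113 in control and 160 in iAdFASNKO Lin-, had Prox1 at 627 and 556 CPM and Mmrn1 at 1946 and 1930 CPM, and the blood vessel marker Flt1 at 15.2 and 15.4 CPM. Blood endothelial cells, 74 in iAdFASNKO Lin- and 41 in iAdFASNKO Lin+, had Flt1 at 488 and 1060 CPM and Prox1 at 91.6 CPM and 0 UMIs. Control held 11 and 15 blood endothelial cells in Lin- and Lin+, too few for a comparison. A further 33 endothelial cells of iAdFASNKO Lin- lay between both lists.

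In iAdFASNKO Lin-, where both classes could be compared, the lymphatic cells were higher in Lpl (274 against 27.0 CPM, ratio 10.2, 5.43 to 21.4), Gpihbp1 (96.7 against 18.9 CPM, 5.13, 2.39 to 13.1) and Angptl4 (79.1 against 18.9 CPM, 4.19, 1.93 to 10.8). They were lower in Cd36 (79.1 against 272 CPM, 0.291, 0.212 to 0.397) and Fabp4 (2022 against 9499 CPM, 0.213, 0.201 to 0.225). Apoe, at 1723 against 1175 CPM (1.47), did not pass the rule. The lipase, its anchor and its inhibitor were thus on 1 side and the fatty acid carriers on the other, 5 of 6 measured genes against 19.7% of all genes. The blood endothelial values of Lpl, Gpihbp1 and Angptl4 rest on 10, 7 and 7 UMIs. Blood endothelial cells of iAdFASNKO Lin+ held Gpihbp1 at 81.6 CPM, so for this gene the contrast depends on the Lin- cells. Lpl and Angptl4 were each at 11.7 CPM in those Lin+ cells, on 3 UMIs each. Among genes of the other lists, the receptors Stab1 (557 against 210 CPM, 2.65) and Lsr (113 against 43.1 CPM, 2.62), the receptor chaperone Lrpap1 (94.5 against 51.2 CPM, 1.85) and Abca1 (209 against 121 CPM, 1.72) were higher in lymphatic cells. Pltp (2.2 against 132 CPM), Scarb1 (12.1 against 256 CPM), Fabp5 (67.0 against 245 CPM) and Slc27a3 (24.2 against 53.9 CPM) were lower.

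Between genotypes, Gpihbp1 in lymphatic endothelial cells went from 187 to 96.7 CPM, a ratio of 0.516 (0.401 to 0.659). The shares of cells with a UMI were 60.2% and 29.4%, and 20.9% and 11.6% after thinning to 1500 UMIs, with 3 and 22 cells left out, while T cells of Lin+ had 0 UMIs. The median depths were 8339 and 3182.5 UMIs. Fabp4 went from 1375 to 2022 CPM (1.47, 1.38 to 1.57), just under the rule, and Cd36 from 57.2 to 79.1 CPM (1.38, 0.995 to 1.92). Apoe was at 0.867 (0.815 to 0.923), Lpl at 1.16 (0.983 to 1.37) and Angptl4 at 0.871 (0.644 to 1.17). So 1 of 6 measured genes passed, against 8.11% of all genes. Vldlr, a receptor for triglyceride-rich particles, was lower (43.4 and 25.3 CPM, 0.583, 0.345 to 0.953), as was Lipa, the lysosomal lipase (65.4 and 36.3 CPM, 0.554, 0.361 to 0.832). Of 9 measured genes for fatty acid uptake and activation, Acsl4 was higher (13.1 and 35.2 CPM, 2.69, 1.48 to 5.02), and Acsl1 (28.9 and 15.4 CPM, 0.532, 0.268 to 0.994) and Acsl5 (90.2 and 56.1 CPM, 0.621, 0.440 to 0.865) were lower. These enzymes couple fatty acids to coenzyme A.

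The lymphatic class was not uniform. A split by 4 of the 8 lymphatic markers (Ccl21a, Reln, Lyve1 and Nts), chosen after values were seen, left 44 control and 73 iAdFASNKO cells with 2 or more of them and 34 and 43 cells with none. Gpihbp1 was at 273 and 178 CPM in the former and at 105 and 61.8 CPM in the latter, lower in iAdFASNKO in both. Apoe was at 1403 and 1074 CPM in the former, found in 25.0% and 21.9% of cells, and at 2615 and 2281 CPM in the latter, found in 100% and 95.3%. Fabp4 was at 649 and 521 CPM against 2005 and 2815 CPM. The genotype difference in Fabp4 thus had opposite signs in the 2 groups of cells, and 38.4% of its control UMIs in the cells without these markers lay in 1 cell.

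**Figure D5:**
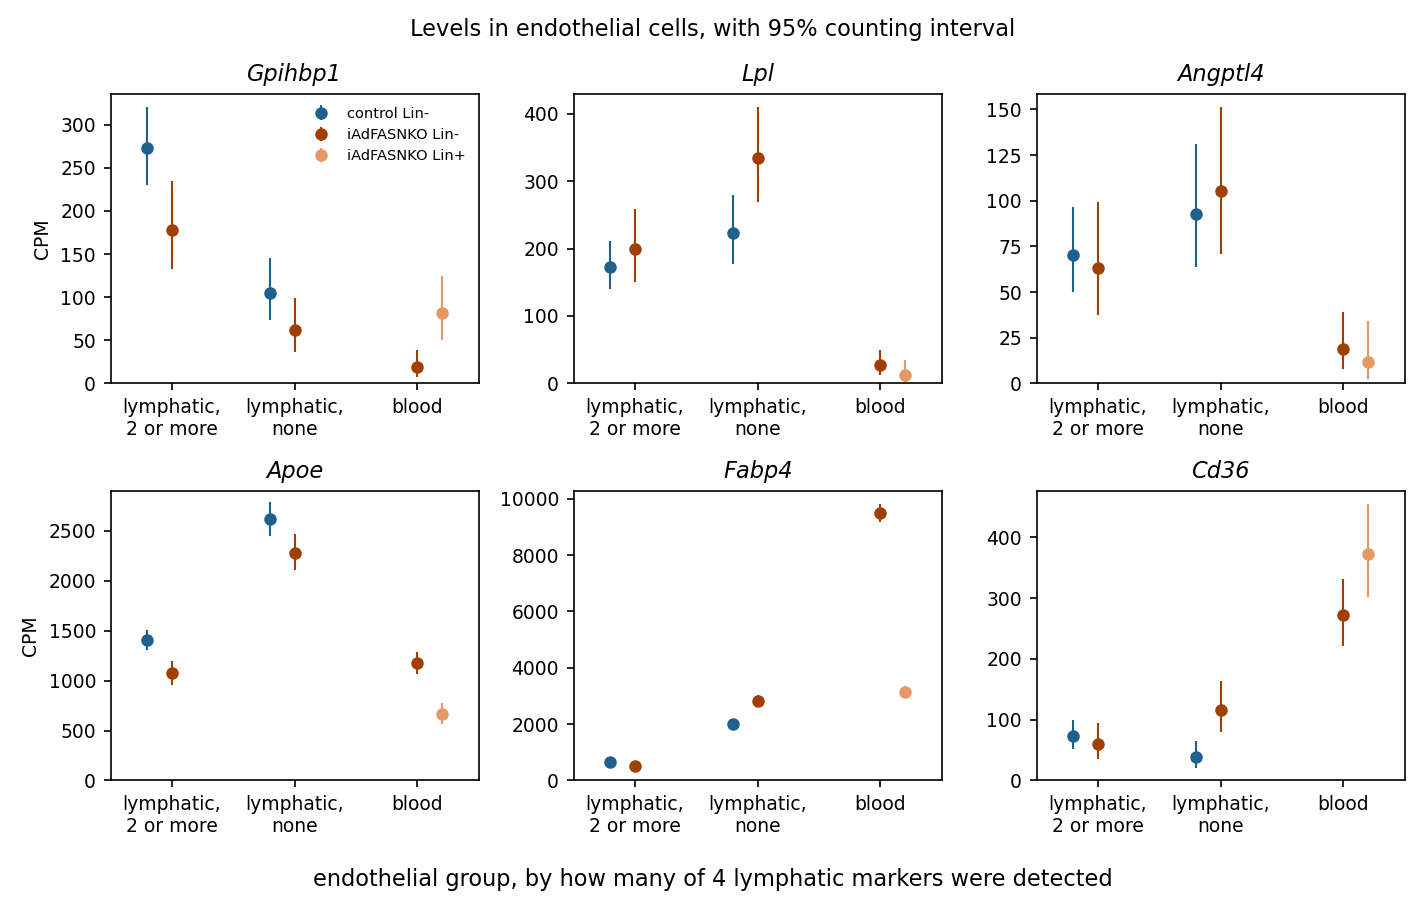
CPM with 95% counting intervals of 6 genes in lymphatic endothelial cells with 2 or more or with none of 4 lymphatic markers, and in blood endothelial cells, for the libraries with at least 30 such cells. Gpihbp1 is highest in the first group, at 273 CPM in control Lin- and 178 CPM in iAdFASNKO Lin-, and Fabp4 and Cd36 in blood endothelial cells.

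Blood endothelial cells of iAdFASNKO could also be compared between fractions. Gpihbp1 was higher in Lin+ (81.6 against 18.9 CPM, 4.32, 1.77 to 12.04), while Apoe (664 against 1175 CPM, 0.565, 0.471 to 0.676) and Fabp4 (3127 against 9499 CPM, 0.329, 0.305 to 0.355) were lower, 3 of 4 measured genes against 21.4% of all genes. Of the 21 Gpihbp1 UMIs in Lin+, 42.9% lay in 1 cell, and without the cells with most UMIs the ratio was 3.46, on fewer UMIs than the rule asks. Flt1 was at 1060 CPM in Lin+ and 488 CPM in Lin-. Whether the fractions hold different vessel segments was not tested.

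In mural cells of Lin-, 308 in control and 934 in iAdFASNKO, Fabp4 went from 2748 to 4220 CPM (1.54, 1.49 to 1.58) and was found in 89.6% and 90.3% of cells, or 79.5% and 84.1% thinned, with 10 and 41 cells left out. It was the single one of 6 measured genes past the rule, against 9.84% of all genes. Angptl4 was at 68.0 and 101 CPM (1.48, 1.24 to 1.77), Cd36 at 44.9 and 56.5 CPM (1.26), Lpl at 238 and 245 CPM (1.03), Apoe at 49.2 and 38.9 CPM (0.791) and Lrp1 at 91.0 and 66.5 CPM (0.731). The endothelial marker Pecam1 was at 4.30 and 15.5 CPM in these cells and the 8 blood endothelial markers summed to 11.3 and 26.9 CPM, against 6798 CPM in blood endothelial cells of iAdFASNKO Lin-. Their part in the Fabp4 difference was not tested. With a stricter gate or as a mean over cells the ratio fell just under the rule. Sorl1 (8.59 and 24.3 CPM, 2.83, 1.78 to 4.71) and Fabp3 (6.64 and 11.8 CPM, 1.78) were higher too, and Lipa lower (28.5 and 16.7 CPM, 0.585).

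In macrophages of Lin+, 113 in control and 63 in iAdFASNKO, 5 of the 7 genes were measured, and none of the 5 was higher. Angptl4, under the minimum with 9 and 10 UMIs, was at 15.8 and 34.1 CPM (2.16, 0.788 to 6.00), and Gpihbp1 had 0 UMIs. Apoe was at 0.830 (0.788 to 0.874), Cd36 at 0.846 (0.690 to 1.03) and Lpl at 0.745 (0.595 to 0.926), none past the rule. Lrp1 went from 223 to 143 CPM (0.643, 0.442 to 0.917) and Fabp4 from 116 to 47.8 CPM (0.412, 0.214 to 0.741). These 2 of 5 measured genes stand beside 11.5% of all genes. Of the 66 control UMIs of Fabp4, 78.8% lay in 1 cell, and without the cell with most UMIs in each library the ratio was 1.11 (0.404 to 2.84). Lrp1 did not pass with a looser cell filter, with classes by clustering or as a mean over cells.

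Other genes of the lists were lower in iAdFASNKO macrophages, and none was higher. Over all genes 437 were lower and 196 higher in this comparison, with a median log2 ratio of -0.12. Fabp5 was at 160 and 6.83 CPM, on 91 and 2 UMIs (0.0427, 0.00509 to 0.159), of which 54 in control lay in 1 cell (0.0525 without it). Npc2, which moves cholesterol out of lysosomes, was at 940 and 567 CPM (0.603), and Pltp, the phospholipid transfer protein, at 1425 and 870 CPM (0.611). Abcg1 was at 84.3 and 27.3 CPM (0.324, 0.132 to 0.691) and Lrpap1, the chaperone of LRP1, at 77.3 and 27.3 CPM (0.353, 0.144 to 0.759). The 8 macrophage markers summed to 14816 and 12259 CPM and those of erythroid cells, mostly haemoglobin, to 13874 and 31638 CPM. The part of the haemoglobin RNA in these ratios was not tested.

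In Schwann cells of Lin-, 84 in control and 208 in iAdFASNKO, Apoe went from 719 to 416 CPM (0.579, 0.466 to 0.718), the opposite of progenitors in the same libraries. Of the control UMIs 24.5% lay in 1 cell, and without the cell with most UMIs in each library the ratio was 0.636. The shares of cells with a UMI were 28.6% and 21.2%, and 20% and 21.5% when thinned, with 9 and 101 cells left out, at median depths of 2799.5 and 1541.5 UMIs. With a looser gate the ratio did not pass the rule. Fabp4 had 0 UMIs in control and 30 in iAdFASNKO, at least 6.46-fold higher with control set to 3 UMIs. Of the 30, 36.7% lay in 1 cell, and without that cell fewer UMIs were left than the rule asks. The iAdFASNKO level, 75.7 CPM, overlapped in its interval the 47.0 CPM of T cells in the same library. The mural markers summed to 109 and 260 CPM in Schwann cells and the blood endothelial ones to 46.9 and 80.7 CPM. The part of these markers in the Fabp4 difference was not tested. Apoe and Fabp4 were 2 of 5 measured genes against 8.27% of all genes. Lrp1 was at 78.2 and 65.6 CPM and Angptl4 at 121 and 126 CPM.

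The pattern of each gene over the classes was compared with those of all genes by correlating log2(CPM + 10) over the 26 sums of a class and library with at least 30 cells, among 12029 genes. The points share libraries and cell classes, so the values describe and do not test. Closest to Apoe were Ralgds (Pearson r = 0.93), Abca1 (0.89) and Tcn2 (0.88), and closest to Lpl were Nupr1 (0.92), Dapk1 (0.87) and Cd302 (0.85). Gpihbp1 was closest to Megf6 (0.99), Cldn5 (0.98) and Btnl9 (0.98), and Cd36 to Prune2, Rhobtb1 and Slc7a7 (0.90, 0.89 and 0.89). Fabp4 was followed by Ctgf, Lrch2 and Msrb3 (each 0.92). For Lrp1 they were Sh3pxd2b (0.95), Dtx4 (0.91) and Axl (0.91), and for Angptl4 Vldlr (0.96), Dync2li1 (0.95) and Smo (0.94). Among the 7 themselves the highest values were 0.85 for Lpl and Lrp1, 0.77 for Lpl and Angptl4 and 0.73 for Apoe and Cd36, and the lowest was -0.38 for Gpihbp1 and Lrp1.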

How the data were processed

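Single-cell RNA-seq (10x Genomics 3' v3) of iWAT stromal cells was processed by the authors with Cell Ranger 3.1.0 on mm10, per the submitters' processing notes, which also name Seurat 3.0. The deposited values are raw counts of UMIs per gene and cell, per the file headers. The genotype of a matrix was read from its name and the fraction from the barcode tag given in the labels.

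Cells with at least 500 UMIs, at least 300 genes and at most 10% mitochondrial UMIs were kept. Scrublet (scanpy 1.11.5, expected rate 0.06) called 204 of 14931 passing barcodes doublets, which were removed (1.37%; 0.240% in control Lin+ to 2.24%). A cell entered a class with at least 3 of 8 markers and 2 more than of any other class, and a progenitor subset with at least 2 markers and 2 more than of the other. After the data were seen, endothelial lists were kept from competing (lymphatic with at least 3 lymphatic markers, blood with at most 1), and haemoglobin genes were left out of the erythroid list for classing cells, not from its summed level. None of the 7 genes is in these lists.

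UMIs were summed per class and library, without a test, since each group was 1 pooled library. Totals were 21622291 (control Lin+), 25865546 (iAdFASNKO Lin+), 33016494 (control Lin-) and 22557680 (iAdFASNKO Lin-) UMIs over all barcodes, so intervals are narrow for large classes but cover counting error only. Classes of under 30 cells were not compared. The size rule was run over all genes, which gave the background shares, and was tested on simulated data. The text names the 7 genes, up to 4 genes of each list past the rule (1 receptor gene is not reported here, and the counts of its list are left out), and the 3 closest genes by correlation. The members and lists were chosen with earlier results of these data known. Alternatives covered cell filter, gate, clustering (leidenalg 0.10.2), scaling (median of ratios, and TMM from edgeR 4.0.16), doublets, cell weighting, single cells and the minimum of UMIs.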

Additional observations from a re-analysis of the deposited data

Results flagged for a closer look

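In progenitors Cd36 and Fabp4 were higher in iAdFASNKO in Lin- and lower in Lin+, and the difference between fractions was not tested. For Cd36 the ratio was 1.77 in Lin- and 0.335 in Lin+ progenitors, and 2.03 and 0.342 in committed preadipocytes. The 6.17 CPM of Cd36 in iAdFASNKO Lin+ progenitors was not above the 6.27 CPM of B cells in that library. For Fabp4 the ratio was 1.68 and 0.396 in progenitors, and 1.92 and 0.619 in committed preadipocytes. Each ratio compares 1 library with 1 library. Committed preadipocytes made up 29.4% of control and 12.2% of iAdFASNKO Lin+ progenitors. In interstitial Lin+ progenitors neither gene passed the rule, with Fabp4 at 4.19 and 6.58 CPM and Cd36 at 1.12 and 1.65 CPM. The part of this make-up in the ratios of all progenitors was not tested.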

How the results depend on the processing

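Single-gene values, which are the ratios and the thinned shares of cells with a UMI, were compared with their main counting interval under each alternative. Of these, 945 stayed within it, 211 moved outside it and 3 ratios past the rule changed direction. Ratios not past the rule were not checked for direction. Of the counts, which are genes past the size rule and thinned shares higher in iAdFASNKO, 145 stayed within 1.5 times and 33 did not. In all progenitors and in committed preadipocytes, the Apoe, Cd36 and Fabp4 calls were kept in 14 of 14 alternatives in both fractions. The exception was Fabp4 in committed Lin+ cells (13 of 14). The lymphatic Gpihbp1 call was kept in 13 of 13 (0.340 to 0.553). Among these alternatives, dropping the minimum of UMIs cannot lose a call. None of them changed the marker split into progenitor subsets. Mural cells, with 1 gene past the rule, had 3 with a looser cell filter, 2 with clustering, either scaling or without the top cell, and 0 with a stricter gate or as a mean over cells. Lymphatic cells, with 1, had 3 without shared barcodes and 2 with a stricter cell filter, either scaling, as a mean over cells, without the top cell or above 3000 UMIs. Schwann cells, with 2, had 1 with a looser or stricter gate or without the top cell. Macrophages, with 2, had 1 with a looser cell filter or clustering and 0 as a mean over cells. Interstitial Lin+ progenitors, with 1, had 3 with a stricter cell filter or without shared barcodes and 2 with a stricter gate, clustering, a mean over cells, the gate as first written or above 3000 UMIs. Interstitial Lin- progenitors, with 2, had 1 with a stricter gate, clustering, a mean over cells, without the top cell or without shared barcodes. Blood endothelial cells between fractions, with 3, had 6 with the gate as first written. Fabp4 in macrophages reversed to 2.99 with clustering and 1.11 without the top cell, and Angptl4 in interstitial Lin- progenitors to 1.01 as a mean over cells; beyond the cells left out by construction, the cause was not tested. Scaling shifted all log2 ratios by up to -0.20 (blood endothelial cells between fractions) and by -0.15 in Lin+ progenitors. The alternatives on shared barcodes, the gate as first written and 3000 UMIs were chosen after seeing the data. Too few cells remained for a stricter cell filter in mural cells and macrophages, the gate as first written in lymphatic cells and 3000 UMIs in Schwann cells. No paired analysis was possible because each group is 1 library.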
